A study of Mus musculus with 6 samples.

Results

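The SR splicing factors examined here were the 10 genes Srsf1, Srsf2, Srsf3, Srsf4, Srsf5, Srsf6, Srsf7, Srsf9, Srsf10 and Srsf11, chosen by name from the 55367 genes of the count table. All 10 were present and all 10 had enough counts to be tested, among 16976 tested genes. RNA-seq was carried out on cortical cells of C57BL/6J mouse pups taken at postnatal day 1 and kept for 2 days in vitro, with 3 WT and 3 Fmr1-KO libraries. The Fmr1-KO mouse carries a disrupted Fmr1 gene and is used as a model of fragile X syndrome, and the comparison asked how each SR mRNA differed in Fmr1-KO relative to WT. According to the methods, astrocytes and myelin had been depleted with magnetic beads before plating, and no sorting of neurons was described. The sources used here gave neither the sex of the pups nor how many were pooled for a library, and they did not say whether replicates were separate litters, so P-values measure only the spread between these libraries.

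SR proteins bind short exonic sequences through RNA recognition motifs and recruit the spliceosome through a tail rich in arginine and serine, the RS domain. They are known for selecting alternative exons, and several also carry mRNA to the export machinery. Many of them are known to limit their own mRNA by alternative splicing, through a poison exon with a premature stop codon or an intron spliced downstream of the normal one, and the resulting transcript is degraded by nonsense-mediated mRNA decay (NMD). NMD acts on a translated mRNA when a stop codon lies well upstream of an exon junction, where exon junction complexes remain bound.

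The annotation was first checked for these NMD-linked transcripts. In GENCODE M21 on GRCm38, the 10 genes had 85 transcripts, of which 29 were coding, 15 were labelled as NMD substrates, 26 retained an intron and 15 were other processed transcripts. An NMD transcript was listed for 9 of the 10 genes, the exception being Srsf10. In Srsf3, Srsf4, Srsf7, Srsf9 and Srsf11, the stop codon lay in an exon that none of the gene's coding transcripts contained. The starts of these exons are shown because they carry the feature that gives the group its name. Each runs 5′ to 3′ on the gene's own strand from the first base of the exon to the stop codon, which is in capitals.
Srsf3-201, exon 4, chr17:29039454-29039487, plus strand: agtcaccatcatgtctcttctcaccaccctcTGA
Srsf7-203, exon 4, chr17:80205054-80205081, minus strand: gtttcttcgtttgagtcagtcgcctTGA
Srsf11-206, exon 4, chr3:158024209-158024231, minus strand: ttcttttccctggttcagccTGA
Srsf9-205, exon 2, chr5:115328347-115328428, plus strand: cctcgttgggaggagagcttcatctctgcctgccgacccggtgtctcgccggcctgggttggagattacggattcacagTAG
Srsf4-203, exon 2, chr4:131884276-131884390, plus strand: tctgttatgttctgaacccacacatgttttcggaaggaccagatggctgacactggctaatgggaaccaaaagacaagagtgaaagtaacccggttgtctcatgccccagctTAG

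The exons of Srsf3 and Srsf7 were long, at 456 and 460 bases, and reached their stop codon after 34 and 28 bases. Those of Srsf9, Srsf4 and Srsf11-206 had 358, 207 and 109 bases, with the stop codon ending at base 82, 115 and 23. From the stop codon to the last exon junction there were 548 bases in Srsf3, 699 in Srsf7, 700 in Srsf9, 617 in Srsf4 and 456 in Srsf11. In Srsf1, Srsf5 and Srsf6 the exon with the stop codon overlapped an exon of a coding transcript, and in Srsf2 the NMD transcripts shared the stop codon of the coding transcript and had introns spliced downstream of it. The stop codon of the Srsf6 NMD transcript was likewise used by a transcript labelled coding. The share of a gene's merged exon bases that lay outside its coding transcripts ran from 2.66% in Srsf1 to 66.9% in Srsf3. Counts were summed over all exons of a gene, so a count below includes reads from productive, NMD and intron-retaining transcripts alike, and the use of a poison exon was not measured.

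**Figure D1:**
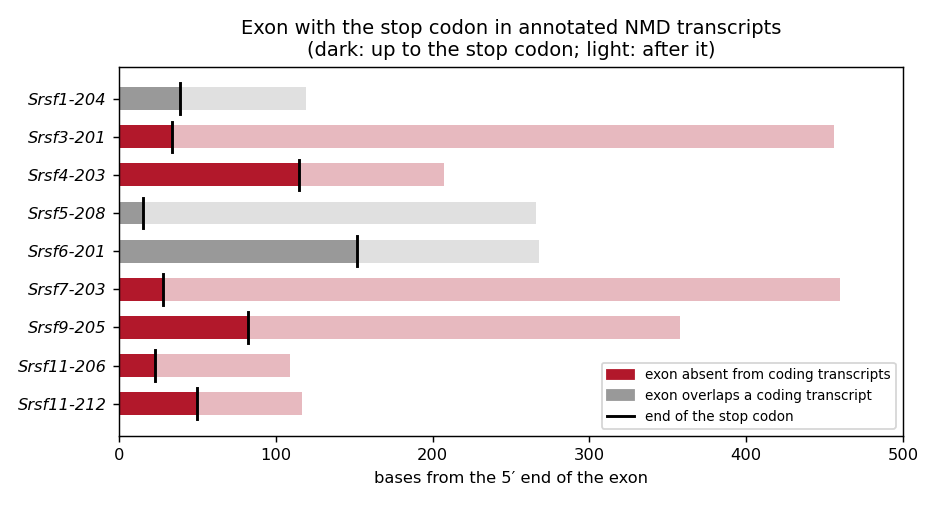
Length in bases of the exon that holds the stop codon in annotated NMD transcripts of the SR genes, with the stretch up to the stop codon dark, the rest light and a black line at the end of the stop codon. Red exons are absent from all coding transcripts of the gene, and the stop codon of Srsf3 and Srsf7 lies within the first 34 bases of exons of 456 and 460 bases.

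The libraries held between 30348556 and 35126207 counts, and the highest total was 1.16 times the lowest. The targeted gene, Fmr1, was at 118.3, 112.2 and 109.6 CPM (each count taken relative to the TMM-scaled library total) in WT. In Fmr1-KO it was at 54.2, 61.4 and 56.7 CPM, which was 50.6% of the WT mean. Every Fmr1-KO library lay below every WT library, the direction that the labels give. With this much Fmr1 mRNA remaining, the counts alone do not establish the genotype of a library. Of the 14 neuronal markers, all were detected, and so were markers of other cell types, which are given with the results. Detection alone does not tell how far neurons were enriched. In WT the astrocyte marker Gfap had a mean of 2649 CPM, above the highest neuronal marker, Dcx, at 1253 CPM.

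The SR genes were slightly higher in Fmr1-KO. When each gene was tested by edgeR with P-values adjusted over all tested genes, 7 of the 10 members were higher at an adjusted P under 0.05, 0 were lower and 3 were not called. Across all genes, 20.7% were called higher and 21.9% lower, or 42.6% in either direction. Among the 5277 genes within the members' range of mean CPM, 22.8% were called higher and 30.4% lower. At an unadjusted P under 0.05 the number of members that were lower was also 0, as it was with DESeq2. The members' median log2 fold-change was 0.09 (range 0.01 to 0.23), against a median of 0.01 over all genes. These are small differences: the largest mean in Fmr1-KO was 117.4% of WT, and the median absolute log2 fold-change of all called genes was 0.29. The CPM of the genotypes did not overlap for 8 of the 10 members, against 51.7% of all genes in either direction.

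Summed over the 10 genes, the WT libraries had 2415, 2419 and 2398 CPM and the Fmr1-KO libraries had 2558, 2618 and 2570 CPM. The mean was 2411 ± 10.9 (SD, n = 3) in WT and 2582 ± 31.9 (SD, n = 3), or 107.1% of WT, in Fmr1-KO, and the 2 genotypes did not overlap. Because the cells were measured in bulk, a change in the share of a cell type and a change of RNA per cell cannot be told apart.

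Markers of several cell types also differed between genotypes, and their part in the SR results was not tested. Over all genes, 20.7% were called higher and 21.9% lower. Of 12 markers of proliferating cells, 12 were higher in Fmr1-KO, and their summed level was 648.7 to 691.7 CPM in WT and 1120 to 1169 CPM in Fmr1-KO. Of 10 neural progenitor markers, 6 were higher and 0 were lower (2481 to 2505 CPM in WT, 2810 to 2889 CPM in Fmr1-KO). Of 14 neuronal markers, 12 were lower and 2 were higher (5662 to 5810 CPM in WT, 4686 to 4911 CPM in Fmr1-KO). All 8 markers of the oligodendrocyte lineage were lower (1884 to 2046 CPM in WT, 1075 to 1159 CPM in Fmr1-KO), as were 7 of 8 microglial markers (164.7 to 182.6 CPM against 96.5 to 108.4 CPM). Astrocyte markers were mixed, with 2 of 8 higher and 4 lower (5090 to 5211 CPM in WT, 4488 to 4861 CPM in Fmr1-KO), and so were endothelial and mural markers, with 3 higher and 3 lower of 7 tested (104.4 to 114.3 CPM against 112.6 to 120.3 CPM). Cspg4 (log2 fold-change -0.64) was counted in both this last list and the oligodendrocyte list. Each sum is weighted towards the most abundant markers of its list. The median log2 fold-change was 0.67 for proliferating cells and 0.21 for progenitors (range -0.12 to 2.79). It was -0.64 for neurons (range -1.90 to 0.41) and -0.72 for the oligodendrocyte lineage. For microglia, astrocytes and endothelial and mural cells it was -0.56, -0.05 and 0.35. Across the alternative fits these ran from -1.05 to -0.52, -0.07 to 0.03 and -0.08 to 0.45. No marker was at 0 in all libraries. For the lists with no call in one direction, the count in that direction was 0 at an unadjusted P and with DESeq2 as well.

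**Figure D2:**
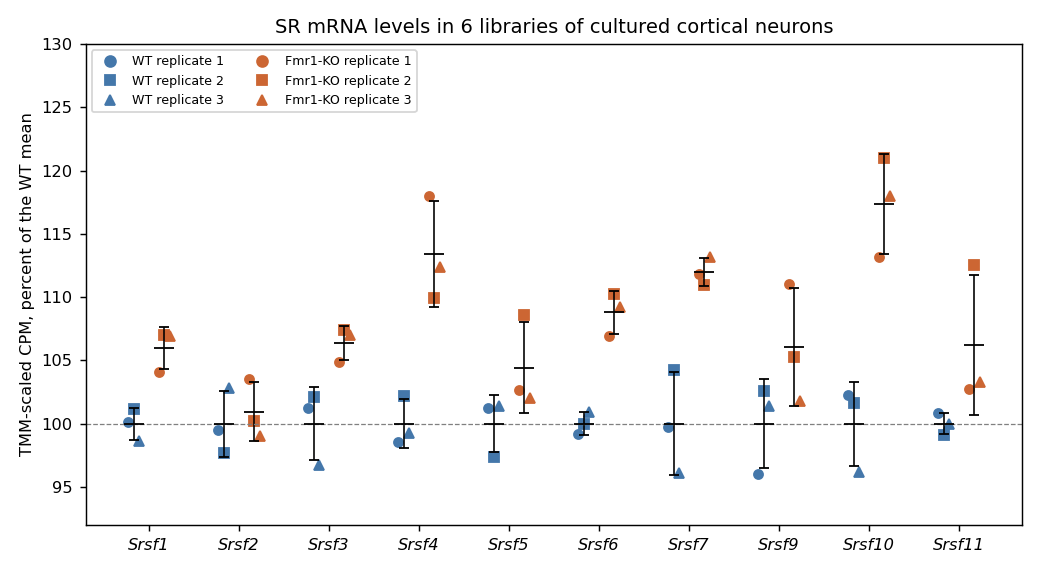
TMM-scaled CPM of each SR gene in each library, as a percentage of that gene's WT mean, with WT in blue, Fmr1-KO in orange, one symbol per replicate and black bars for the mean and SD (n = 3). The axis does not start at 0. The genotypes separate for all genes but Srsf2 and Srsf9, and Srsf10 lies highest, at 117.4% of WT.

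Among the members with 2 RNA recognition motifs, Srsf4 and Srsf6 rose most. Srsf4, a large SR protein with a long RS domain, lies on the plus strand of chromosome 4 from 131873617 to 131901706. It was at 107.5, 111.5 and 108.3 CPM in WT and at 128.7, 119.9 and 122.6 CPM in Fmr1-KO. The lowest Fmr1-KO library was above the highest WT library, and edgeR gave a log2 fold-change of 0.18 (SE 0.035, adjusted P 0.000226). The gene span overlaps that of the unclassified transcript A930004J17Rik on the same strand, and the effect of this on the counts was not tested.

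Srsf6, a regulator of alternative exons such as those of tau, lies on the plus strand of chromosome 2 from 162931528 to 162937121. Its WT libraries were at 351.2, 354.0 and 357.5 CPM and its Fmr1-KO libraries at 378.8, 390.5 and 386.9 CPM. WT replicates lay within a narrow band, all below the Fmr1-KO replicates, and edgeR gave a log2 fold-change of 0.12 (SE 0.028, adjusted P 0.00137).

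Srsf1, the best-studied SR protein and a factor in both splicing and translation, lies on the plus strand of chromosome 11 from 88047373 to 88053755. It was at 469.7, 474.3 and 462.5 CPM in WT and at 488.0, 501.7 and 501.5 CPM in Fmr1-KO, the highest CPM of the family. By edgeR, the change on the log2 scale was 0.08 (SE 0.028, adjusted P 0.0193), without overlap between genotypes. The call was lost when WT replicate 1 (adjusted P 0.0575) or 3 (0.0907), or Fmr1-KO replicate 3 (0.0637), was left out.

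Srsf9, the closest relative of Srsf1, lies on the plus strand of chromosome 5 from 115327177 to 115333080 and had the lowest CPM. Its WT libraries were at 45.7, 48.8 and 48.3 CPM and its Fmr1-KO libraries at 52.8, 50.1 and 48.5 CPM, so that Fmr1-KO replicate 3 lay below WT replicate 2. The log2 fold-change of 0.08 (95% interval -0.01 to 0.18) did not pass the test (adjusted P 0.131 by edgeR). It was 0.05 without WT replicate 1 or without Fmr1-KO replicate 1.

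Srsf5, known for its response to growth signals, lies on the plus strand of chromosome 12 from 80945504 to 80950507. It was at 319.4, 307.2 and 319.9 CPM in WT and at 324.0, 342.7 and 321.9 CPM in Fmr1-KO. The genotypes did not overlap, but the gap between them was small and the difference was not called (log2 fold-change 0.06, SE 0.032, adjusted P 0.119 by edgeR). Without Fmr1-KO replicate 2 the log2 fold-change of Srsf5 was 0.03 (adjusted P 0.41). With library totals alone in place of TMM, Srsf5 (0.09, adjusted P 0.0252) and Srsf9 (0.11, adjusted P 0.0443) both passed.

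Among the members with a single RNA recognition motif, Srsf10 had the largest log2 fold-change of the family. It is known as a repressor of splicing when dephosphorylated, during heat shock and mitosis, and lies on the plus strand of chromosome 4 from 135855747 to 135869908. It had 4406, 4165 and 3980 raw counts in WT and 4562, 4591 and 5091 in Fmr1-KO. These corresponded to 126.8, 126.0 and 119.3 CPM and to 140.3, 150.0 and 146.3 CPM, with every Fmr1-KO library above every WT library. By edgeR, the change on the log2 scale was 0.23 (SE 0.035, adjusted P 1.63e-05). Srsf10 is also the one member for which this annotation lists no NMD transcript.

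Srsf7, a zinc-knuckle SR protein and an adaptor for mRNA export, lies on the minus strand of chromosome 17 from 80200080 to 80207307. It was at 207.2, 216.6 and 199.7 CPM in WT and at 232.4, 230.6 and 235.1 CPM in Fmr1-KO. The Fmr1-KO replicates lay within a narrow band above all WT replicates, with a log2 fold-change of 0.16 (SE 0.032, adjusted P 0.000326 by edgeR).

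Srsf3, the smallest SR protein and likewise an export adaptor, lies on the plus strand of chromosome 17 from 29032628 to 29043373. It was at 268.1, 270.3 and 256.1 CPM in WT and at 277.6, 284.3 and 283.3 CPM in Fmr1-KO. The genotypes did not overlap, and edgeR gave a log2 fold-change of 0.09 (SE 0.030, adjusted P 0.0217). This call was lost without WT replicate 3 (adjusted P 0.145) or Fmr1-KO replicate 3 (0.0622). The pseudogene Srsf3-ps had at most 7 counts in a library.

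Srsf11, a larger and less typical SR protein, lies on the minus strand of chromosome 3 from 158010473 to 158036639. Its WT libraries were at 233.7, 229.8 and 231.8 CPM and its Fmr1-KO libraries at 238.1, 260.9 and 239.5 CPM. Fmr1-KO replicate 2 stood above the other libraries, and edgeR gave a log2 fold-change of 0.09 (SE 0.034, adjusted P 0.0469). Without that library it was 0.04 (adjusted P 0.268), and the call was also lost with DESeq2 (0.0615) and without WT replicate 1 (0.0888), 2 (0.106) or 3 (0.0981). The locus overlaps the unclassified gene Gm43362 on the same strand.

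Srsf2, which marks nuclear speckles, lies on the minus strand of chromosome 11 from 116849901 to 116853094. It was at 285.5, 280.4 and 295.1 CPM in WT and at 297.2, 287.6 and 284.3 CPM in Fmr1-KO. The genotypes overlapped, and the log2 fold-change of 0.01 had a 95% interval of -0.05 to 0.08 (adjusted P 0.763 by edgeR). Its sign turned without WT replicate 2 or Fmr1-KO replicate 1.

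Srsf4, Srsf6, Srsf7 and Srsf10 passed the threshold in 14 of 15 alternative fits. The exception was a test against a minimum fold change of 1.2, which called 0 members at either the adjusted or the unadjusted P. Without WT replicate 3, 4 members were called in place of 7.

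Levels were next compared between members as CPM per kb of merged exons, since longer genes gather more reads. In WT the order was Srsf2 (97.0 CPM per kb), Srsf1 (82.1), Srsf5 (79.1), Srsf6 (73.6), Srsf7 (58.5), Srsf3 (33.5), Srsf4 (30.7), Srsf9 (28.8), Srsf11 (27.4) and Srsf10 (17.7). The order of means was the same in Fmr1-KO. In WT, the ranges of neighbours over the 3 libraries overlapped only for Srsf9 and Srsf11, while in Fmr1-KO those of Srsf1 and Srsf5, Srsf5 and Srsf6, and Srsf3 and Srsf4 did so too. The order depended on the length used: with the longest transcript in place of merged exons, 6 of 10 genes changed rank in WT and 9 of 10 in Fmr1-KO, and Srsf2 stayed first in both. By merged exons, Srsf10, with the largest rise, had the lowest level per kb, and Srsf2, with a change near 0, had the highest. By longest transcript, the lowest was Srsf10 in WT and Srsf9 in Fmr1-KO. A relation between level and change was not tested.

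**Figure D3:**
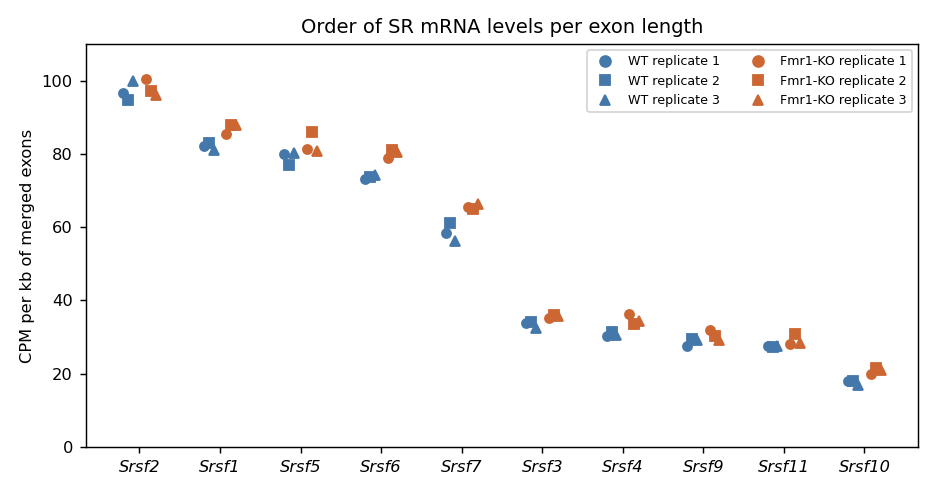
Level of each SR gene in CPM per kb of merged exons, one symbol per library, with WT in blue and Fmr1-KO in orange, in the order of the WT means. Srsf2 is highest at 97.0 CPM per kb in WT and Srsf10 lowest at 17.7.

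Ratios of related genes within a library do not depend on how libraries are scaled. For 6 pairs, the log2 ratio was compared between genotypes by a 2-sided exact permutation test, in which 3 against 3 libraries cannot give a P below 0.1. The ratio of Srsf10 to Srsf12, its closest relative, was 6.47, 6.33 and 6.01 in WT and 10.25, 9.89 and 10.45 in Fmr1-KO. The 2 genotypes did not overlap (difference 0.70 on the log2 scale, exact P 0.1, adjusted P 0.3 over the 6 pairs). Srsf3 to Srsf7, the pair of export adaptors, was 1.294, 1.248 and 1.282 in WT and 1.195, 1.233 and 1.205 in Fmr1-KO, again without overlap (difference -0.07, exact P 0.1, adjusted P 0.3). For the other pairs the genotypes overlapped, with log2 differences of -0.00 for Srsf1 to Srsf9, 0.06 for Srsf4 to Srsf6, -0.06 for Srsf5 to Srsf6 and 0.04 for Tra2a to Tra2b (exact P 0.2 to 1.0).

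**Figure D4:**
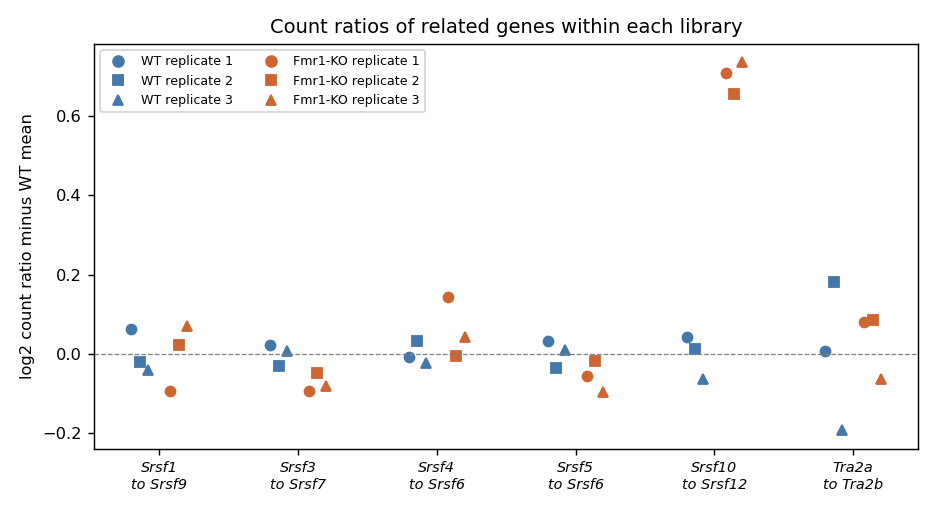
Log2 ratio of the counts of related splicing factors in each library, minus the mean log2 ratio of the WT libraries, for 6 pairs, with WT in blue, Fmr1-KO in orange and one symbol per replicate. The Srsf10 to Srsf12 ratio separates the genotypes most, by 0.70 on the log2 scale, and the Srsf3 to Srsf7 ratio is lower in Fmr1-KO by a difference of -0.07.

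Of 13 other SR and SR-like regulators, 4 were higher, 1 was lower and 8 were not called (median log2 fold-change 0.06). For this list and those that follow, the shares over all genes were 20.7% higher and 21.9% lower. Srsf12, the member that fell, had 681, 658 and 662 counts in WT and 445, 464 and 487 in Fmr1-KO. All Fmr1-KO libraries were below all WT libraries, and edgeR gave a log2 fold-change of -0.47 with an adjusted P of 2.61e-06, opposite in sign to Srsf10. The 4 that rose were Rsrp1, with an arginine- and serine-rich product (log2 fold-change 0.24, adjusted P 0.00058), Srek1, a regulator of SR activity (0.21, adjusted P 0.000269), Scaf11, an RS-domain protein (0.17, adjusted P 0.000513), and Scaf4, which binds RNA polymerase II (0.11, adjusted P 0.0263). Fmr1-KO replicate 2 was the highest library for Rsrp1, at 225.3 CPM, and without it the log2 fold-change was 0.15 (adjusted P 0.00143). The call of Scaf4 was lost with DESeq2, with no filter, and when WT replicate 2 or 3 or Fmr1-KO replicate 1 was left out.

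Tra2a and Tra2b, SR-like activators of exon inclusion with poison exons of their own, did not pass. Tra2a was at 111.6, 124.9 and 96.1 CPM in WT and at 119.6, 123.2 and 115.5 CPM in Fmr1-KO (log2 fold-change 0.11, adjusted P 0.153 by edgeR). WT replicate 2 was the highest of the 6 and WT replicate 3 the lowest. Without the former Tra2a passed (0.20, adjusted P 0.0021), and without the latter its log2 fold-change was 0.01 (adjusted P 0.847). Tra2a passed also with no filter (adjusted P 0.0185) and with the replicate block (0.0401). For Tra2b the log2 fold-change was 0.08, with an adjusted P of 0.0535, and it passed with upper-quartile scaling (0.0285), library totals (0.0102), the stricter filter (0.0435) or without Fmr1-KO replicate 1 (0.0349). The values for those not called were -0.07 for Scaf1, 0.06 for Scaf8, -0.00 for Rsrc1, 0.06 for Rsrc2, -0.01 for Sfswap and 0.03 for Clasrp. Without WT replicate 1, Scaf1 was called lower (-0.10, adjusted P 0.0435).

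Of 10 SR protein kinases and import factors, 0 were higher, also at an unadjusted P and with DESeq2, 1 was lower and 9 were not called (median -0.01). The fall was in Srpk3, a kinase of SR proteins known from muscle, whose mean went from 9.89 to 6.09 CPM (log2 fold-change -0.71, adjusted P 2.36e-05 by edgeR). Srpk1 and Srpk2, kinases that phosphorylate the RS domain in the cytoplasm, did not pass. Their log2 fold-changes were -0.08 (adjusted P 0.0598 by edgeR) and 0.02, and Srpk1 was called lower without WT replicate 3 (-0.10, adjusted P 0.0387). The nuclear kinases Clk1, Clk2, Clk3 and Clk4 were at 0.07, 0.02, -0.00 and -0.02, Prpf4b at 0.08, Dyrk1a at -0.04 and Tnpo3, the import receptor of SR proteins, at -0.02. Without WT replicate 2, Clk1 (0.13, adjusted P 0.0147), Prpf4b (0.14, adjusted P 0.0116) and Rsrc2 of the SR-like list (0.12, adjusted P 0.0176) were called higher. Other libraries moved them the other way: Clk1 was at 0.01 and Rsrc2 at 0.03 without WT replicate 3, and Prpf4b was at 0.04 and Rsrc2 at 0.03 without Fmr1-KO replicate 2.

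**Figure D5:**
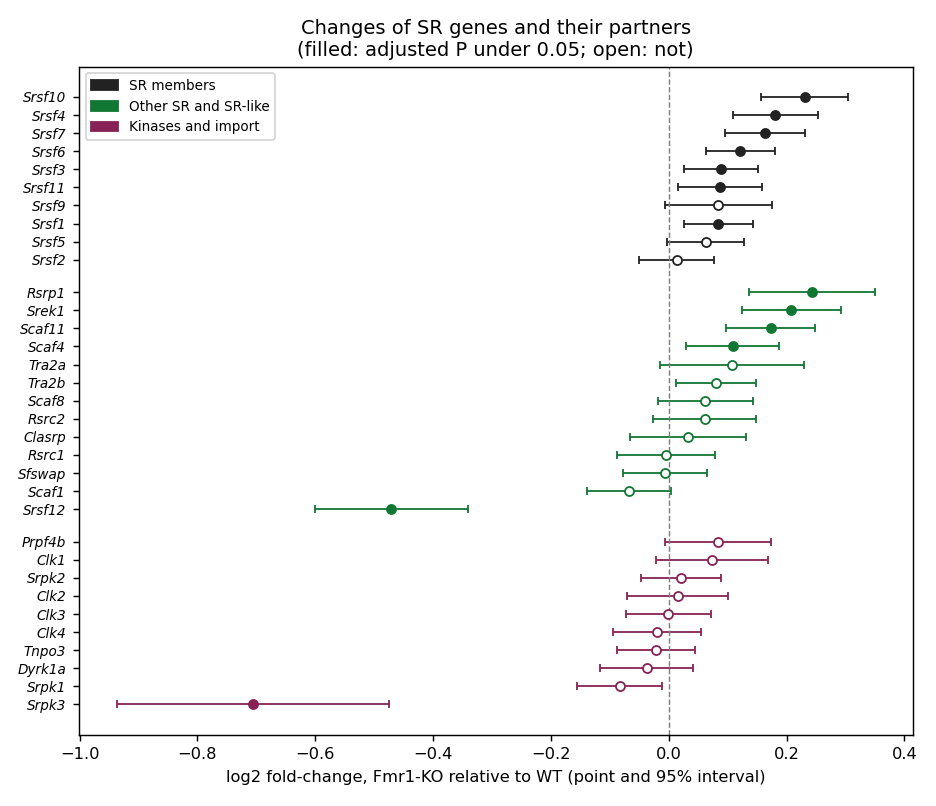
Log2 fold-change in Fmr1-KO relative to WT with its 95% interval for the 10 SR genes (black), 13 other SR and SR-like regulators (green) and 10 SR kinases and import factors (purple), filled where the adjusted P was under 0.05. The SR genes lie between 0.01 and 0.23, and Srsf12 (-0.47) and Srpk3 (-0.71) lie apart from their lists.

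The wider machinery was read in the same fit, in which 20.7% of all tested genes were called higher and 21.9% lower. Of 19 RS-domain coactivators, 11 were higher and 1 was lower (median log2 fold-change 0.09), with Luc7l2, a U1-associated factor, at 0.22 and Rnps1, a splicing activator of the exon junction, at -0.09. The number higher was 7 without WT replicate 1 or Fmr1-KO replicate 2, and the median was 0.04 without the latter. The fall of Rnps1 was not called with DESeq2, upper-quartile scaling, library totals or no filter, nor without WT replicate 2 or 3 or Fmr1-KO replicate 2 or 3. Of 26 hnRNP proteins, which often oppose SR proteins at exons, 16 were higher and 0 lower (median 0.11), with Hnrnph3 at 0.37 and Ptbp1, a repressor of neuronal exons, at 0.22. Of 15 other regulators known for NMD-linked exons, 8 were higher and 0 lower (median 0.11), with the translational repressor Tia1 at 0.27. These lists share members.

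Of 29 core snRNP proteins, 7 were higher and 0 lower (median 0.05), with the U1 protein Snrnp70 at 0.19. The share called higher was close to the 20.7% over all genes. The number higher was 4 without Fmr1-KO replicate 3 and 14 with library totals alone. Of 13 mRNA export factors, 6 were higher and 0 lower (median 0.09), with Thoc2 of the THO complex at 0.33, and the number was 3 without WT replicate 3 or Fmr1-KO replicate 1. Of 10 NMD factors, 3 were higher and 1 lower (median 0.05), with Upf3b, which links NMD to the exon junction complex, at 0.31 and Smg8, a regulator of the kinase Smg1, at -0.14 (adjusted P 0.0482 by edgeR). The call of Smg8 was lost with DESeq2, upper-quartile scaling, library totals or no filter, and without each library other than Fmr1-KO replicate 1. With library totals alone, 5 NMD factors were higher. Of 5 exon junction complex genes, 1 was higher and 0 lower, namely Rbm8a at 0.13. For each list with 0 lower, the count was 0 at an unadjusted P and with DESeq2 too.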

How the data were processed

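The values the authors deposited were raw, unnormalized counts for each gene. Per the labels and the methods, single-end reads from polyA-selected, stranded libraries were trimmed with FastP, aligned to GRCm38.p6 with STAR and summed by gene name over exons with featureCounts in reverse-stranded mode. Such counts separate antisense genes but not isoforms.

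WT and Fmr1-KO libraries, grouped by their labels, were compared with edgeR 4.0.16 in R 4.3.3 (filterByExpr, TMM, glmQLFit and glmQLFTest, 2-sided, genotype as the only term, Benjamini-Hochberg adjustment, calls at an adjusted P under 0.05). The SE was the size of the log2 fold-change divided by the square root of F. The scripts were tested on simulated data, where recovery of the calls was required only for changes larger than those of the SR genes. Between replicates, chi-square divided by its degrees of freedom was 2.19 to 3.73, which is more than counting alone gives. Exons, transcript classes, lengths and sequences came from GENCODE M21, an earlier release than the one the authors used, and the transcript labels are those of that release. Paralog ratios were tested with scipy 1.17.1. No set test was run.

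The members and gene lists were chosen with earlier results of these data known. The genes named were Fmr1, the members, the other SR-like genes, SR kinases and ratio partners. From each other list except the marker lists, the called genes with the largest rise and fall at a mean of at least 10 CPM were named. Of the markers, Gfap and Dcx were named for their WT level, and Cspg4 because the oligodendrocyte and the endothelial and mural lists share it. Ptbp1 was added after its value was seen. As alternatives, DESeq2 1.42.0 was run, libraries were scaled by RLE, by upper quartile or by their totals, and the filter was dropped or raised to means of 10 counts and 5 CPM. The replicate number was added as a block, each library was left out in turn, the 20 genes with most counts were removed, and a minimum fold change of 1.2 was required.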

Additional observations from a re-analysis of the deposited data

How the results depend on the processing

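Across 150 alternative values for the 10 members, 129 kept their direction and their side of the threshold, 17 lost the call, 2 gained it and 2 turned sign. The cause of these changes was not tested. A minimum fold change of 1.2 left 883 genes higher and 1340 lower overall and 0 members. The number of members called higher was between 4 and 7 when a library was left out, and 6 with DESeq2. Their median log2 fold-change was 0.10 when scaled by the upper quartile, 0.12 when scaled by library totals and 0.0857 to 0.1092 when a library was left out. The median of all genes lay within 0.034 of 0 under all scalings. The replicate numbers did not pair the libraries (correlations of deviations of -0.0796, 0.0636 and 0.0226). With the replicate block 3488 genes were higher and 3694 lower, and the same 7 members were called; of the other SR-like genes and kinases, Tra2a (adjusted P 0.0401) and Prpf4b (0.0303) then passed. Prpf4b also passed when scaled by library totals. Values that turned sign were all near 0. Scaled by the upper quartile these were Rsrc1 (0.0065), Sfswap (0.0042) and Clk3 (0.010), and scaled by library totals Rsrc1 (0.024), Sfswap (0.021), Clk3 (0.027), Clk4 (0.0081) and Tnpo3 (0.0061). With the stricter filter Clk3 was at 0.00039. When a library was left out, the range crossed 0 for Srsf2 (-0.0061 to 0.033), Rsrc1 (-0.020 to 0.0088), Sfswap (-0.033 to 0.0077), Clasrp (-0.025 to 0.078), Srpk2 (-0.0012 to 0.047), Clk2 (-0.013 to 0.036), Clk3 (-0.023 to 0.018) and Dyrk1a (-0.078 to 0.0028). When a library was left out, 4 of the 6 paralog ratios kept their sign, while Srsf1 to Srsf9 ran from -0.04 to 0.05 and Tra2a to Tra2b from -0.06 to 0.13. With 3 libraries a genotype and differences of up to 1.17-fold, calls near the threshold were lost when any of several libraries was left out. The estimate did not always shrink with the call: Srsf1 was at 0.085 without WT replicate 1 and at 0.084 with all libraries.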

Other observations

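The values in this paragraph were chosen after they had been seen. Among the members in Fmr1-KO, replicate 2 was the highest of the 3 libraries for Srsf1 (501.7 CPM), Srsf3 (284.3), Srsf5 (342.7), Srsf6 (390.5), Srsf10 (150.0) and Srsf11 (260.9). For Srsf1, replicate 3 was close to it (501.5). Replicate 1 was the highest for Srsf4 (128.7), Srsf9 (52.8) and Srsf2 (297.2), and replicate 3 for Srsf7 (235.1). Outside the members, Fmr1-KO replicate 2 was also the highest for Srek1 (134.1), Scaf11 (161.7), Rsrp1 (225.3), Luc7l2 (268.2) and Thoc2 (141.5). In WT, replicate 2 was the highest for Tra2a (124.9 CPM), Clk1 (117.8), Rsrc2 (130.1) and Prpf4b (188.2). Among the members it was the highest for Srsf1 (474.3), Srsf3 (270.3), Srsf4 (111.5), Srsf7 (216.6) and Srsf9 (48.8). WT replicate 3 was the highest for Srsf2 (295.1), Srsf5 (319.9) and Srsf6 (357.5), and WT replicate 1 for Srsf10 (126.8) and Srsf11 (233.7). The cause was not tested.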
